A study of Mus musculus with 25 samples.

Results

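The 10 genes described here, S100a8, S100a9, Retnlg, Prok2, Il1r2, Mmp8, Mmp9, Slfn4, Csf3r and Fpr1, are known markers of neutrophils, and they were chosen by symbol from the 15104 genes measured in mouse liver. The choice was made with earlier results of these data known. Member counts and medians set beside those of all genes are therefore descriptions and no test of the set. Each was found through the RefSeq transcript name of its array probe, each had 1 probe, and all 10 passed the filter on dim probes. Liver RNA came from 25 female C57BL/6NcrSlc mice, 1 single-colour Agilent array per mouse, in 5 groups of 5 mice. The untreated group received no injection that the labels name. In the other 4 groups hepatitis was provoked with concanavalin A (ConA), a lectin that activates T cells, at 10 mg/kg. These mice were given vehicle or 1 mg/kg BW245C, an agonist of the prostaglandin D2 receptor DP1, into the peritoneum 15 minutes later, and livers were taken at 3 or 24 hr. The untreated group has no time of its own and served as the reference at both times.

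A level here is a log2 signal set relative to its own array: a value of 0 stands for the 75th percentile of the processed signals there. Levels are background-subtracted, and levels of different probes are not compared. Between 52.2% and 61.6% of the spots of an array were well above background, and 0 were saturated; precision is limited by how many arrays there are. A difference was called at an adjusted p under 0.05 (limma, Benjamini-Hochberg over 15104 genes), and ± is a standard error of the fit unless SD is written. The mice are numbered 1 to 5 within a group, and p-values measure the spread between these mice, pooled over all 5 groups in 1 fit. The arrays lay on 5 slides that hold unequal parts of the groups. All 5 BW245C arrays of 3 hr lay on slide 3 with 2 vehicle arrays of 3 hr, 4 of 5 untreated arrays lay on slide 1, and slide 4 held 4 vehicle and 3 BW245C arrays of 24 hr. For the members, values with slide as a block, or within a slide, are given where slide changed a call. For genes of the other lists no such values are given, so whether their calls depend on slide is not shown. In bulk liver, more or fewer cells of a type and more or less RNA per cell cannot be told apart.

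Neutrophils are short-lived granulocytes that leave the bone marrow, are drawn from the blood into injured tissue by chemokines and formyl peptides, and release granule proteases and reactive oxygen. In the liver they gather in the sinusoids, and they are a known early infiltrate of ConA hepatitis. S100a8 and S100a9 encode the subunits of calprotectin, an abundant calcium-binding alarmin of the neutrophil cytosol. Retnlg encodes a resistin-like protein of granulocytes, and Prok2 a small secreted chemoattractant. Il1r2 encodes the decoy receptor of interleukin 1. Mmp8 and Mmp9 encode neutrophil collagenase and gelatinase B, which digest matrix. Slfn4 is a myeloid gene of the Schlafen family. Csf3r encodes the receptor for granulocyte colony-stimulating factor, and Fpr1 the receptor for bacterial and mitochondrial formyl peptides.

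The RefSeq promoter table (GRCm38.p6) held 9 of the 10 members, and Mmp9 was not among them. The 250 bases before the start site are shown for 5 members whose levels moved together between mice, so that the pair of S100 neighbours can be read beside genes elsewhere. Capitals mark matches on either strand to TATAAA (the TATA box), TTGCNNAA (C/EBP), GAGGAA (PU.1), TGANTCA (AP-1) or TTCNNNGAA (STAT), and adjoining matches run together.
S100a8 (chr3:90668821-90669070, plus strand): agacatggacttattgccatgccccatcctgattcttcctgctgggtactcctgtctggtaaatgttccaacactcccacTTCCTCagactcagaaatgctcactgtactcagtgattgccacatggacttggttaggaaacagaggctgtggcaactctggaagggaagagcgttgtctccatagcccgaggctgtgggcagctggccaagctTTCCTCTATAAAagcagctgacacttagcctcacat
S100a9 (chr3:90695722-90695971, minus strand): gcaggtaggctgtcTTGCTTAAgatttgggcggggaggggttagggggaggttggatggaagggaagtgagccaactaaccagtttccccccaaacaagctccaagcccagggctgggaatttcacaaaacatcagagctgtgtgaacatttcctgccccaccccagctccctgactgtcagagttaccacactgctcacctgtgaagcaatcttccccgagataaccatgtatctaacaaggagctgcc
Retnlg (chr16:48872358-48872607, plus strand): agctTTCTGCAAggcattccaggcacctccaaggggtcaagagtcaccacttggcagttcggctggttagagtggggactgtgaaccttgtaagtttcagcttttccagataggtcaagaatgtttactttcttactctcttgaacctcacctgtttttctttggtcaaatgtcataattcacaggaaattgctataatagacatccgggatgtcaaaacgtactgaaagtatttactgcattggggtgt
Mmp8 (chr9:7558179-7558428, plus strand): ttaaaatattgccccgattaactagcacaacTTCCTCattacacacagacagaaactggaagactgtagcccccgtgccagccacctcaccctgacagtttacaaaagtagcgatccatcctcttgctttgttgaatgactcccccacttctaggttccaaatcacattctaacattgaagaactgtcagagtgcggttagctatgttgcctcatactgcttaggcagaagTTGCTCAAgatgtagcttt
Slfn4 (chr11:83174936-83175185, plus strand): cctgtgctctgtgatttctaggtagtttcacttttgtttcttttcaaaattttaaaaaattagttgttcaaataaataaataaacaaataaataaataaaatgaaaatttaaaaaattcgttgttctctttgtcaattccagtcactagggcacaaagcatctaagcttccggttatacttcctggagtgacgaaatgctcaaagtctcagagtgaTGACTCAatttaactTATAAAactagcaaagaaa
S100a8 and S100a9 lie next to each other on chromosome 3 on opposite strands, and their windows shared no motif. S100a8 held a TATA box from -30 to -25 that directly follows a PU.1 match from -36 to -31, and a further PU.1 match from -170 to -165. S100a9 held 1 C/EBP match from -236 to -229. Mmp8 held a C/EBP match close to its start, from -19 to -12, and a PU.1 match from -219 to -214. Slfn4 held an AP-1 match from -34 to -28 and a TATAAA match from -19 to -14, and Retnlg held a C/EBP match from -246 to -239. Among the 9 member promoters, C/EBP letters were in 3 (S100a9, Retnlg, Mmp8), PU.1 letters in 3 (S100a8, Mmp8, Csf3r), TATAAA letters in 4 (S100a8, Prok2, Slfn4, Fpr1), AP-1 letters in 2 (Prok2, Slfn4) and STAT letters in 1 (Il1r2). The TATAAA letters of Fpr1 lay far from its start, from -227 to -222. Among all 32851 promoter windows of this length the shares were 9.56% for C/EBP, 23.3% for PU.1, 12.4% for TATAAA, 6.75% for AP-1 and 7.02% for STAT. These matches describe letters and not binding.

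In untreated livers 4 of the 10 genes were well above background on all 5 arrays, namely S100a8, S100a9, Csf3r and Fpr1. Retnlg and Mmp9 were above background on 1 untreated array each, and Prok2, Il1r2, Mmp8 and Slfn4 on 0 of 5. At 3 hr after ConA with vehicle, 7 of 10 members were called (background 62.0% of all genes), of which 6 rose and 1 fell (background 37.0% lower), and 3 were not called. Over all genes 3769 of 15104 were called higher. The median difference of the 10 members was 5.37 on the log2 scale, against -0.093 over all 15104 genes. The arrays of the 6 genes that rose did not overlap with the untreated arrays, which held for 18.2% of all genes in that direction.

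The alarmin pair rose strongly and together. The untreated log2 levels of S100a8 were -2.61, -2.74, -2.71, -3.18 and -1.91, and those at 3 hr after ConA with vehicle were 4.80, 4.18, 3.54, 3.49 and 3.70. The lowest vehicle array thus stood far above the highest untreated array, and the difference was 6.57 ± 0.36, or 95.2-fold (adjusted p = 2.14e-13). S100a9, its partner, rose from a mean level of -0.42 ± 0.31 (SD, n = 5) to 5.89 ± 0.52 (SD, n = 5), a 79.6-fold difference (adjusted p = 1.07e-13). Retnlg rose by a fitted 6.45 ± 0.36 on the log2 scale (adjusted p = 4.72e-13), from levels of -4.40, -4.52, -3.96, -5.25 and -4.20 to 2.58, 2.37, 1.66, 1.71 and 1.58. Only the untreated array at -3.96 was above background for Retnlg, so that no fold is given.

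Another 3 genes rose from below background, and a bound is given for them (at least so many fold). It sets the mean of the group with signal against a floor, which on each array is the faintest value of any probe called well above background, or the gene's own value if that is higher. The floor is not the limit of each probe, and the bound carries no error. For example, Retnlg at -4.40 in untreated replicate 1 was not above background, although that array's faintest such value was -4.77. Il1r2, the decoy receptor, reached levels of -0.72, -0.76, -1.57, -1.72 and -1.91 at 3 hr and rose at least 10.2-fold (adjusted p = 5.3e-10). Mmp8, the collagenase, reached -0.32, -0.21, -1.35, -1.80 and -1.59 and rose at least 12.4-fold (adjusted p = 4.13e-11). Slfn4 reached -0.40, -0.55, -1.27, -0.64 and -0.94 and rose at least 15.2-fold (adjusted p = 3.01e-11). All 5 vehicle arrays were above background for each of these genes and 0 untreated arrays were.

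Prok2 and Mmp9 were not well above background on any vehicle array of 3 hr, so that no early level of either gene was measured. The lone untreated array above background for Mmp9 was replicate 4 at -4.18, against -6.07 for the nearest other untreated array. Without that array the log2 difference of Mmp9 was 1.20 and passed (adjusted p = 0.0129), against 0.79 ± 0.44 (adjusted p = 0.119) with it, and in both cases the vehicle arrays were not above background.

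The receptors Csf3r and Fpr1 did not follow the others. Csf3r, the receptor of the neutrophil growth factor, was bright on all 25 arrays, with untreated levels of 6.91, 6.78, 6.98, 6.85 and 6.95 and vehicle levels at 3 hr of 7.25, 6.94, 7.20, 6.85 and 6.93. The groups overlapped and the difference of 0.14 ± 0.085 was not called (adjusted p = 0.157), although it was with slide as a fixed block (0.28, adjusted p = 0.0261). Csf3r rests on 1 probe, and whether that probe reports Csf3r RNA in liver was not tested. Fpr1, also above background on all 25 arrays, fell by 0.79 ± 0.30 on the log2 scale (adjusted p = 0.0242), from 0.76, -0.023, 0.38, 0.57 and 0.26 to 0.34, -0.44, -0.53, -0.43 and -0.93. That call was lost with slide as a fixed block (-0.63, adjusted p = 0.167) or a random block (adjusted p = 0.0644), within slide 2 (-0.026, adjusted p = 0.974), without untreated replicate 1 (adjusted p = 0.0611) and without vehicle replicate 5 (adjusted p = 0.0732). The 6 increases were called with slide as a fixed or random block. Slide 1 held 1 vehicle array and slide 2 held 1 untreated array, so that 1 arm of each had no spread of its own. The differences there were 6.15 and 7.23 for S100a8 and 4.88 and 5.92 for Il1r2. By their levels in untreated liver and their course after ConA, Csf3r and Fpr1 went against the name of the set. Their values are described apart from the other 8, but both are kept in the member counts, medians and list means.

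**Figure D1:**
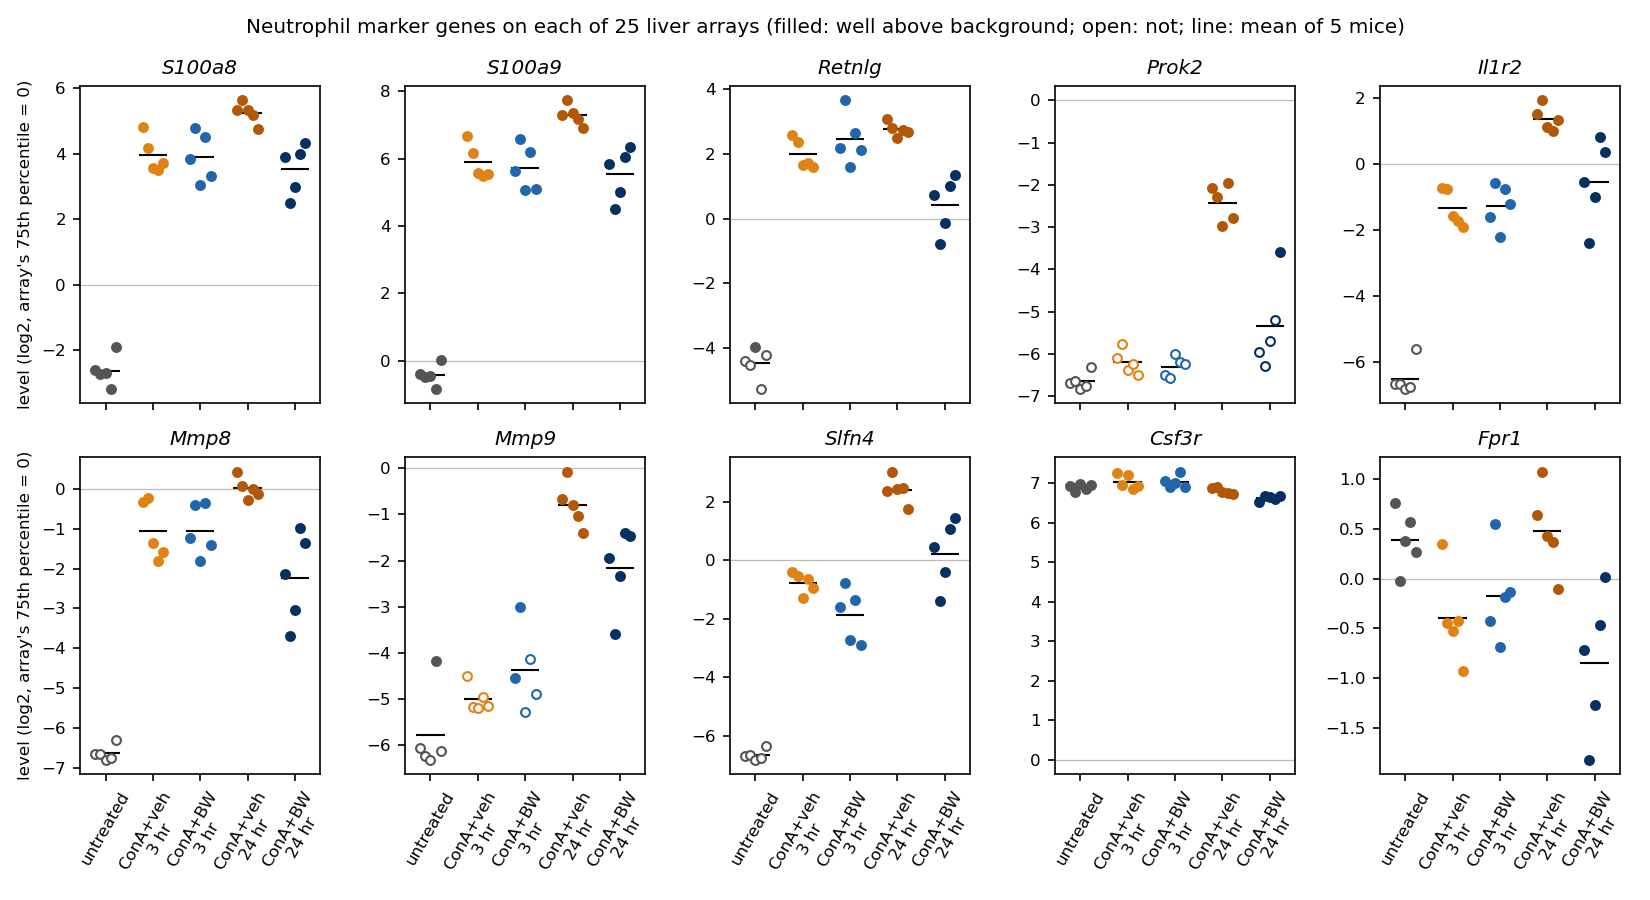
Log2 level (array's 75th percentile = 0) of each of the 10 genes on each of the 25 arrays, by group, with 5 mice per group. Filled points are well above background, open points are not, and lines are group means. S100a8 ranges from -3.18 to -1.91 in untreated mice and from 4.75 to 5.62 at 24 hr after ConA with vehicle, whereas Csf3r stays between 6.51 and 7.29 on all arrays.

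At 24 hr after ConA with vehicle, 8 of 10 members were higher than in untreated livers (background 29.7% higher), 0 were lower (background 39.1%), and Csf3r and Fpr1 were not called. The member median was 6.94 on the log2 scale against -0.082 for all genes. All 8 stood clear of the untreated arrays, as did 27.4% of all genes in that direction. Prok2 was above background on only 6 of 25 arrays, 5 of them in this group, and so passed the filter through the group in which it was high. It is counted for completeness, and no weight rests on it.

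S100a8 reached 5.34, 5.62, 5.32, 5.18 and 4.75 at 24 hr and was 234-fold above untreated (log2 7.87 ± 0.36, adjusted p = 1.77e-14). S100a9 was 210.0-fold higher (adjusted p = 7.89e-15), and Retnlg differed by a fitted 7.22 ± 0.36 on the log2 scale (adjusted p = 9.36e-14). Slfn4 reached 2.38, 3.03, 2.44, 2.47 and 1.75 and was at least 137-fold higher (adjusted p = 2.92e-14), the largest bound among the members. The folds of the S100 pair are over a measured reference, whereas the value for Slfn4 is a bound set against the floor of each array.

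Il1r2 was at least 66.4-fold higher at 24 hr (adjusted p = 4.33e-13), with levels from 0.98 to 1.92. The proteases differed in timing: Mmp8 was at least 26.2-fold higher (adjusted p = 1.77e-12), whereas Mmp9 went from below background at 3 hr to -0.66, -0.072, -0.79, -1.03 and -1.41 at 24 hr. The fitted log2 difference of Mmp9 from untreated was 5.00 ± 0.44 (adjusted p = 6.44e-10), and no fold is given because 4 of 5 untreated arrays were not above background. Prok2 appeared at -2.08, -2.29, -2.97, -1.96 and -2.79 and was at least 4.82-fold higher (adjusted p = 8.17e-11). Untreated and 24 hr vehicle arrays shared no slide, so no within-slide value exists, and all 8 calls held with slide as a fixed or random block.

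Fpr1 at 24 hr lay at 0.64, 1.08, 0.43, 0.37 and -0.11, which overlapped the untreated arrays (difference 0.091 ± 0.30, adjusted p = 0.793, 95% interval -0.52 to 0.70). Csf3r differed by -0.097 ± 0.085 (adjusted p = 0.317, 95% interval -0.27 to 0.079). The sign for Csf3r depended on the scaling. It was 0.27 after quantile normalization and 0.25 in the authors' series matrix values, both called higher, and in the latter the median of all genes was 0.26 rather than -0.082. A direction for Csf3r is therefore not given.

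From 3 to 24 hr after ConA with vehicle, 8 members rose (background 33.2% higher), 1 fell (background 35.3% lower) and Retnlg was not called. Mmp9 and Prok2, not above background on any vehicle array of 3 hr, were measured on all 5 at 24 hr. Mmp9 was at least 12.3-fold higher (adjusted p = 1.11e-08) and Prok2 at least 3.99-fold (adjusted p = 5.48e-10) at 24 hr. Slfn4 and Il1r2, already above background on all 5 vehicle arrays of 3 hr, rose a further 9.03-fold (adjusted p = 5.48e-07) and 6.50-fold (adjusted p = 8.91e-06), and the arrays of these 4 genes did not overlap between the times, as was so for S100a9 and for 24.9% of all genes in that direction.

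The calprotectin pair and Mmp8 were called with smaller folds. S100a8 was 2.46-fold (adjusted p = 0.00255) and S100a9 2.64-fold (adjusted p = 6.28e-04) higher at 24 than at 3 hr. Mmp8 was 2.11-fold higher (adjusted p = 0.023), which was lost without vehicle replicate 4 or 5 of 3 hr (adjusted p = 0.0695 and 0.0595) or replicate 1 of 24 hr (adjusted p = 0.0554). Retnlg differed by 0.77 ± 0.36 (adjusted p = 0.0644) and was called without vehicle replicate 1 of 3 hr (adjusted p = 0.038), without BW245C replicate 2 of 3 hr (adjusted p = 0.0401) or of 24 hr (adjusted p = 0.0385). Fpr1 rose by 0.88 ± 0.30 (adjusted p = 0.0113). Csf3r fell by 0.24 ± 0.085 on the log2 scale (adjusted p = 0.017), a call that was lost without vehicle replicate 1 or 3 of 3 hr (adjusted p = 0.0623 and 0.0555) and that turned to a rise of 0.22 after quantile normalization. With slide as a fixed block 5 of the 9 calls remained, namely S100a9, Prok2, Il1r2, Mmp9 and Slfn4. Those of S100a8 (1.18, adjusted p = 0.0599), Mmp8 (1.06, adjusted p = 0.137), Fpr1 (0.93, adjusted p = 0.0631) and Csf3r (-0.12, adjusted p = 0.367) were lost, and Csf3r also with a random block (adjusted p = 0.0731). Slide 3 held 1 vehicle array of 24 hr and 2 of 3 hr, so that 1 arm had no spread of its own. The differences there were 1.75 for S100a8 (adjusted p = 0.074) and -0.0090 for Csf3r (adjusted p = 0.971).

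Between BW245C and vehicle at 3 hr, 0 of 10 members were called by limma (background 11.7% higher and 16.8% lower). At an unadjusted p under 0.05 there was 1 member, Slfn4. The member median was 0.0013, against -0.037 for all genes. S100a8 lay at 3.84, 4.79, 3.03, 4.51 and 3.31 under BW245C, spread across the vehicle range of 3.49 to 4.80, and differed by -0.047 ± 0.36 (adjusted p = 0.938, 95% interval -0.78 to 0.69). The intervals of Retnlg (-0.29 to 1.22), Il1r2 (-0.85 to 0.97) and Mmp8 (-0.83 to 0.86) also held 0. Intervals this wide do not show that the groups were alike.

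Slfn4 came nearest to a call at 3 hr. Its BW245C levels were -1.59, -0.77, -2.73, -1.37 and -2.91, lower than the vehicle levels in the mean but overlapping them, with a difference of -1.11 ± 0.42 (adjusted p = 0.0522). It was called after quantile normalization (adjusted p = 0.0422) and with an intensity trend (adjusted p = 0.044). Without BW245C replicate 2 or 4 of 3 hr the adjusted p was 0.0215 and 0.0464, and without BW245C replicate 2, 4 or 5 of 24 hr it was 0.0228, 0.0477 and 0.0377. With slide as a fixed block it was 0.17, and within slide 3 the difference was -1.08 (adjusted p = 0.347).

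At 24 hr, 9 of 10 members were lower under BW245C than under vehicle, where 8.94% of genes were called lower, and 0 were higher (background 17.6%). Csf3r was the member not called. The member median was -1.83 on the log2 scale against 0.014 for all genes. The BW245C arrays lay below every vehicle array for 9 members, Csf3r among them and Fpr1 not, which held for 5.41% of all genes. Both 24 hr comparisons use the same 5 vehicle arrays, and no relation between them is drawn.

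The S100 pair was lower by a similar amount. S100a8 lay at 3.89, 2.49, 2.97, 4.00 and 4.33 under BW245C, below the lowest vehicle array at 4.75, and was 3.27-fold lower (log2 -1.71 ± 0.36, adjusted p = 0.00115). S100a9 lay at 5.83, 4.50, 5.00, 6.05 and 6.36 and was 3.35-fold lower (log2 -1.74 ± 0.33, adjusted p = 4.93e-04). Every array of both genes still stood above the untreated range, whose highest levels were -1.91 and 0.028.

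Retnlg and Prok2, which encode secreted proteins, were lower as well. Retnlg lay at 0.72, -0.80, -0.15, 1.02 and 1.35 under BW245C against 3.07, 2.80, 2.48, 2.73 and 2.68 under vehicle, and was 5.00-fold lower (log2 -2.32 ± 0.36, adjusted p = 8.71e-05). Prok2 was above background on all 5 vehicle arrays and on 1 BW245C array, replicate 5 at -3.59, while the other 4 lay between -6.29 and -5.21. The fitted difference of Prok2 was -2.93 ± 0.33 (adjusted p = 4.55e-06), part of which was measured at background and is no exact fold. Prok2 passed the filter through this vehicle group, so no weight rests on its difference or on its place in the counts.

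Il1r2 lay at -0.56, -2.38, -1.01, 0.82 and 0.36 under BW245C and was 3.79-fold lower than vehicle (log2 -1.92 ± 0.44, adjusted p = 0.00243). Its highest BW245C array, at 0.82, came close to the lowest vehicle array, at 0.98. Mmp8 lay at -2.12, -3.69, -3.03, -0.98 and -1.36 and was 4.79-fold lower (log2 -2.26 ± 0.41, adjusted p = 3.4e-04). Slfn4 lay at 0.45, -1.40, -0.40, 1.08 and 1.44 and was 4.54-fold lower (log2 -2.18 ± 0.42, adjusted p = 6.5e-04).

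Mmp9 had the least secure call. It lay at -1.94, -3.60, -2.34, -1.41 and -1.48 under BW245C, with its highest array touching the lowest vehicle array at -1.41, and was 2.57-fold lower (log2 -1.36 ± 0.44, adjusted p = 0.0244). The call was lost without vehicle replicate 1 or 2 (adjusted p = 0.0516 and 0.069) and without BW245C replicate 2 or 3 (adjusted p = 0.0855 and 0.0554). Fpr1, which had not differed from untreated at 24 hr under vehicle, was 2.52-fold lower under BW245C (log2 -1.34 ± 0.30, adjusted p = 0.00186), with arrays at -0.72, -1.82, -1.27, -0.47 and 0.019 that partly overlapped vehicle. Csf3r lay at 6.51, 6.67, 6.64, 6.60 and 6.68, just below the lowest vehicle array at 6.71, and its difference of -0.17 ± 0.085 was not called (adjusted p = 0.134), although it was after quantile normalization (-0.29, adjusted p = 0.0297).

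The 9 calls held with slide as a fixed block, where the differences were larger (S100a8 -1.98, Retnlg -2.61, Slfn4 -2.48). Within slide 4 alone, with 4 vehicle and 3 BW245C arrays, all 9 differences kept their sign and similar size (S100a8 -1.76, S100a9 -1.83, Mmp8 -2.18, Slfn4 -2.38), but only Retnlg (adjusted p = 0.0439) and Prok2 (adjusted p = 0.0254) passed, the other 7 having adjusted p from 0.0518 to 0.119. Prok2 had passed the filter through the vehicle group of 24 hr, so no weight rests on its call. The SD at 24 hr was larger under BW245C than under vehicle for 9 of 10 members, as for 71.5% of all genes, for example 1.25 against 0.37 for Il1r2 and 1.13 against 0.27 for Mmp8. At 3 hr it was larger for 7 of 10 members and 31.6% of all genes, and no difference in SD was tested. The fit pools the spread of all groups. For the 9 members with a larger SD under BW245C at 24 hr, the standard errors may therefore understate the spread of their BW245C arrays.

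**Figure D2:**
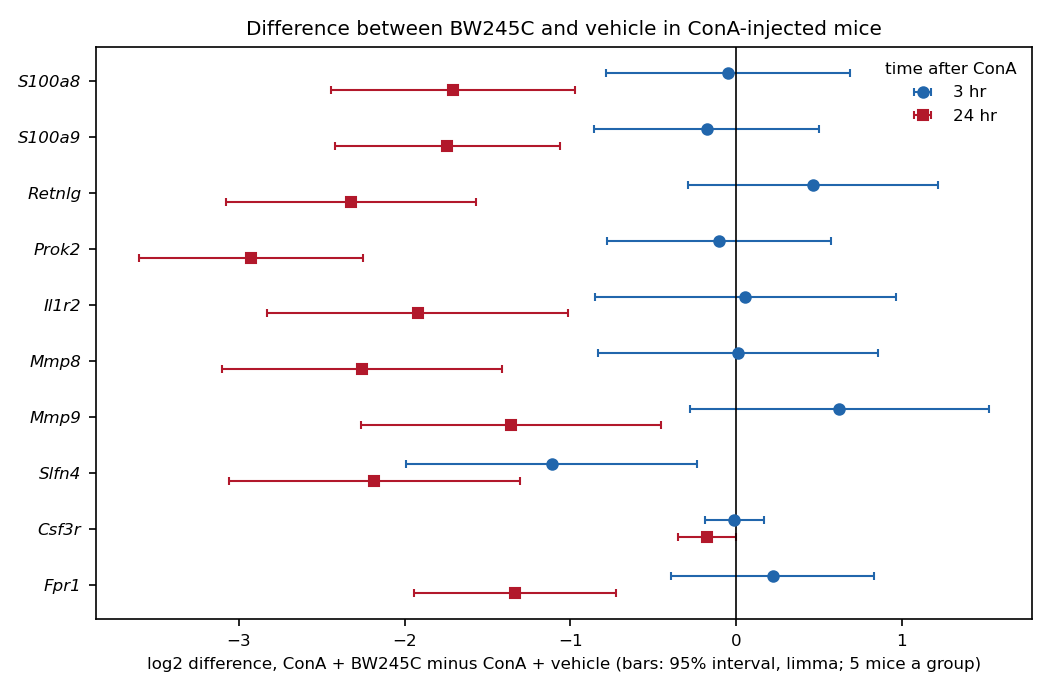
Log2 difference between ConA + BW245C and ConA + vehicle for each gene at 3 hr (circles) and 24 hr (squares), with 95% intervals from the limma fit, 5 mice per group. At 3 hr the interval holds 0 for all members except Slfn4 (-1.99 to -0.24), and at 24 hr it lies below 0 for all members except Csf3r (-0.35 to 0.0018).

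The difference between the agonist's effects at 24 and 3 hr was tested as an interaction, and 8 members were more negative at 24 hr (background 10.8% lower), with 0 the other way (background 19.2%). Retnlg had -2.79 ± 0.52 (adjusted p = 7.42e-04), Mmp8 -2.27 ± 0.58 (adjusted p = 0.00669) and Il1r2 -1.98 ± 0.62 (adjusted p = 0.0215). S100a8 (-1.66 ± 0.50, adjusted p = 0.018), S100a9 (-1.57 ± 0.46, adjusted p = 0.0161) and Fpr1 (-1.56 ± 0.42, adjusted p = 0.00929) were called as well. Prok2 and Mmp9 were also called, but their fitted values, -2.83 and -1.98, hold 3 hr levels at background (0 of 10 arrays above it for Prok2, 2 of 10 for Mmp9) and are no measured sizes. Slfn4, already lower in the mean at 3 hr, had an interaction of -1.07 ± 0.60 that was not called (adjusted p = 0.177), and Csf3r one of -0.17 ± 0.12 (adjusted p = 0.303). With slide as a fixed block 5 of the 8 remained, and S100a8 (adjusted p = 0.0617), Il1r2 (adjusted p = 0.0612) and Mmp9 (adjusted p = 0.127) did not. With a random block Mmp9 was lost too (adjusted p = 0.0519).

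Between 3 and 24 hr under BW245C the members split, with 3 called higher (background 35.8%) and 4 lower (background 34.3%). Slfn4 rose 4.30-fold (adjusted p = 1.39e-04) and Mmp9, above background on 2 of 5 arrays at 3 hr, by a fitted log2 2.22 (adjusted p = 1.09e-04), whereas Retnlg fell 4.04-fold (adjusted p = 4.04e-05). S100a8 (-0.36 ± 0.36, adjusted p = 0.37) and S100a9 (-0.17 ± 0.33, adjusted p = 0.664) were not called, with 95% intervals of -1.10 to 0.38 and -0.84 to 0.51. Mmp8 fell by 1.20 ± 0.41 on the log2 scale (adjusted p = 0.0125) and Prok2 was called higher (adjusted p = 0.0127) with 0 of 5 arrays above background at 3 hr and 1 of 5 at 24 hr. No size was measured, and the fitted 0.95 turned to -0.024 with normexp background correction. Csf3r fell by 0.40 ± 0.085 (adjusted p = 2.36e-04). Fpr1 fell by 0.68 ± 0.30 (adjusted p = 0.0455), which was lost on leaving out 15 of the 25 arrays in turn (adjusted p up to 0.188). Mmp8 was not called without BW245C replicate 2 of 24 hr (adjusted p = 0.0536), and Il1r2, at 0.72 ± 0.44 (adjusted p = 0.146), was called without it (1.18, adjusted p = 0.00791). With slide as a fixed block 4 of these 7 calls remained, and those of Slfn4 (1.61, adjusted p = 0.0551), Prok2 (adjusted p = 0.137) and Fpr1 (-1.04, adjusted p = 0.0691) were lost, that of Fpr1 also with a random block (adjusted p = 0.0818).

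By mean level, S100a8 ran from untreated (-2.63 ± 0.46, SD, n = 5) through BW245C at 24 hr (3.53 ± 0.77), BW245C at 3 hr (3.90 ± 0.75) and vehicle at 3 hr (3.94 ± 0.55) to vehicle at 24 hr (5.24 ± 0.32). The neighbouring middle groups did not differ beyond their spread. For Slfn4 the order was untreated, BW245C at 3 hr (-1.87 ± 0.92), vehicle at 3 hr (-0.76 ± 0.35), BW245C at 24 hr (0.23 ± 1.15) and vehicle at 24 hr (2.42 ± 0.46). For Retnlg, BW245C at 24 hr (0.43 ± 0.88) lay below both groups of 3 hr (1.98 ± 0.46 with vehicle, 2.44 ± 0.77 with BW245C), and for Mmp8 it also came second lowest (-2.24 ± 1.13).

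Mice of the same group that were high for one member tended to be high for the others. After each group's mean was taken out, the median correlation over the 45 pairs of members was 0.724 (Pearson, 25 arrays), and 32 pairs, 71.1%, were above 0.5. Between a member and every other gene tested the median was -0.012, and 7.5% of pairs were above 0.5. S100a8 and S100a9 had r = 0.987, and all 15 pairs among S100a8, S100a9, Retnlg, Il1r2, Mmp8 and Slfn4 lay between 0.807 and 0.987. The points share an array, so its scaling enters every pair, and no p is given.

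Fpr1, whose group means had moved differently, correlated with the other members apart from Csf3r at 0.517 to 0.806 within groups. Prok2, at background in 3 groups, had 0.266 to 0.558, and Csf3r stood apart at 0.025 to 0.296. The same mouse often led the members. In the BW245C group at 24 hr, replicate 2 was lowest for 9 of 10 members and replicate 5 highest for 7. In the vehicle group at 3 hr replicate 1 was highest for 8, and at 24 hr replicate 2 was highest for 7 and replicate 5 lowest for 6.

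**Figure D3:**
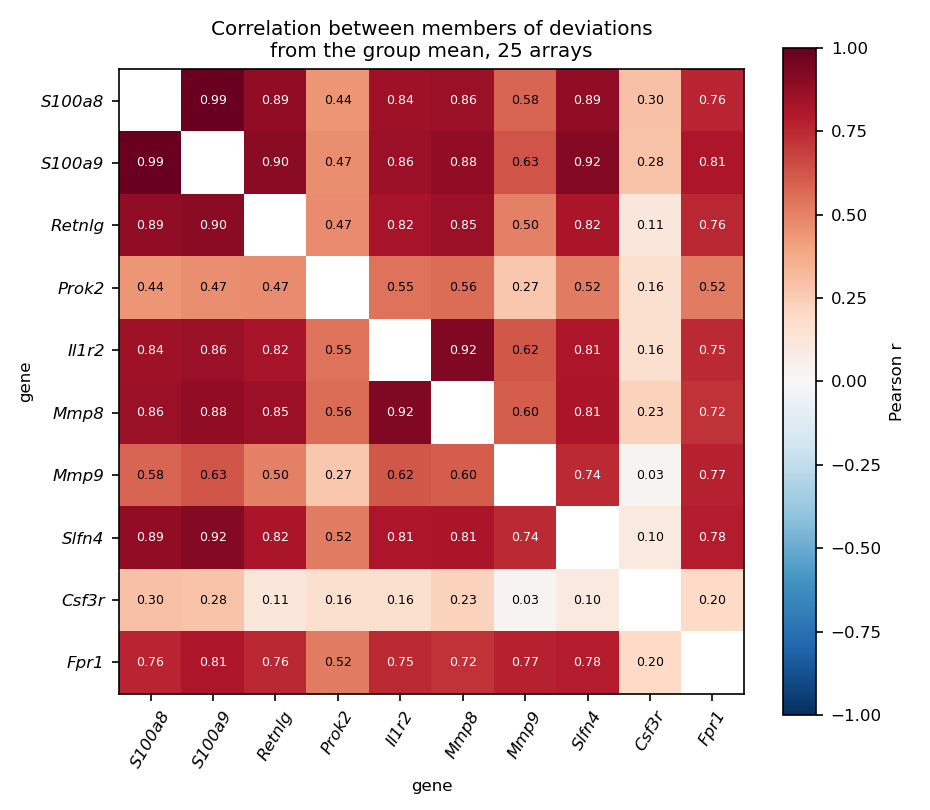
Pearson correlation between each pair of members over 25 arrays after each group's mean was subtracted, on a colour scale from -1 to 1. S100a8 and S100a9 have r = 0.987, and the row of Csf3r stays at or below 0.296.

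The 10 genes most alike the mean profile of the members over all 25 arrays were Hdc (r = 0.98), Cstdc5 (0.975), Samsn1 (0.972), Fpr2 (0.97), Slfn3 (0.97), Hilpda (0.969), Stfa2l1 (0.967), Enc1 (0.967), Clec4d (0.966) and Cstdc4 (0.966). Hdc encodes histidine decarboxylase, Fpr2 a second formyl peptide receptor, and the Cstdc and Stfa genes encode stefin-like protease inhibitors. Clec4e, a pattern receptor of myeloid cells, was the gene most alike both S100a8 and S100a9 (r = 0.995), followed by the chemokine receptor Cxcr2 (0.987 and 0.991). Many genes came near: 140 had r above 0.9 with S100a8, 146 with S100a9 and 197 with Slfn4. Group means were not taken out here. Il1r2 was most like Adam8 (0.982), Mmp8 most like Cstdc4 (0.986), Slfn4 most like Traf1 (0.987) and Mmp9 most like Tlr6 (0.964). Csf3r was most like Mtif2 (0.947), a mitochondrial translation factor, and no gene reached 0.9 with Fpr1, for which Cd80 was first (0.729).

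Other surface and signalling genes of neutrophils also rose after ConA. With vehicle, 27 of 35 measured genes were higher and 2 lower than untreated at 3 hr, and 31 higher and 0 lower at 24 hr. For these and the lists that follow, the shares over all genes after ConA with vehicle were 3769 of 15104 higher and 37.0% lower at 3 hr, and 29.7% higher and 39.1% lower at 24 hr. Between BW245C and vehicle they were 11.7% higher and 16.8% lower at 3 hr, and 17.6% higher and 8.94% lower at 24 hr. Under BW245C at 24 hr 25 were lower and 1 higher than under vehicle, against 1 and 1 at 3 hr, and the median difference of the list at 24 hr was -1.26. Clec4e differed by -1.59 ± 0.31 on the log2 scale at 24 hr under BW245C (adjusted p = 6.96e-04), and Mxd1, a partner of Max, by -1.80 ± 0.25 (adjusted p = 2.42e-05). Cxcr2 was above background on 0 untreated arrays and on all 5 arrays of each ConA group, rose at least 9.25-fold at 3 hr and at least 25.2-fold at 24 hr, and was -1.70 ± 0.35 (adjusted p = 9.86e-04) under BW245C at 24 hr. No probe was assigned to Ly6g.

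Genes in the list of granule proteins and neutrophil precursors also rose after ConA. Of 18 measured, 10 rose and 2 fell at 3 hr, and 14 rose and 1 fell at 24 hr after ConA with vehicle, but under BW245C at 24 hr 5 were lower and 2 higher, with a median difference of -0.44. At 3 hr under BW245C 2 of the 18 were higher and 1 lower, namely Elane (0.79, adjusted p = 0.0152), Ctsg (0.65, adjusted p = 0.0175) and Lcn2 (-0.75, adjusted p = 0.00281), of which Ctsg was named after its value was seen. Lcn2, the siderophore binder lipocalin 2, rose by 6.95 ± 0.17 at 24 hr (adjusted p = 1.42e-18) and differed by 0.035 ± 0.17 under BW245C at that time (adjusted p = 0.905). Chil3 rose by 6.13 ± 0.34 (adjusted p = 3.62e-13) and Gfi1, a repressor in granulocyte precursors, by 4.78 ± 0.28 (adjusted p = 1.01e-12), a fitted value from a reference at background. Under BW245C these differed by -0.32 ± 0.34 (adjusted p = 0.505) and -0.54 ± 0.28 (adjusted p = 0.166). Mpo, which encodes myeloperoxidase, rose by 3.85 ± 0.37 at 24 hr (adjusted p = 3.03e-09) with 0.16 ± 0.37 under BW245C (adjusted p = 0.785). Elane and Camp were above background on all 25 arrays and were not called at either time after ConA with vehicle. Lcn2 and Chil3 were above background on all 5 untreated arrays, and which cells made their RNA was not tested. The difference between these lists was not tested.

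Of 5 measured subunits of the NADPH oxidase, which makes superoxide, 0 were called at 3 hr and all 5 rose at 24 hr, with Ncf1 at 2.01 ± 0.21 (adjusted p = 1.02e-08), Ncf4 at 1.92 ± 0.21 (adjusted p = 3.42e-08) and Rac2 at 1.75 ± 0.20 (adjusted p = 3.56e-08). Only Ncf1 was lower under BW245C at 24 hr (-0.78 ± 0.21, adjusted p = 0.00769). Of 11 measured attractants and growth factors, 9 rose and 0 fell at 3 hr, and 7 rose and 1 fell at 24 hr after ConA with vehicle. From 3 to 24 hr with vehicle 1 was called higher and 6 lower, against 33.2% and 35.3% of all genes. Under BW245C at 24 hr 7 were lower and 0 higher than under vehicle, with a median of -1.46. Cxcl1 differed by -1.87 ± 0.24 (adjusted p = 1.31e-05), Cxcl2 by -3.38 ± 0.45 (adjusted p = 2.06e-05) and Cxcl5 by -2.31 ± 0.30 (adjusted p = 1.77e-05). Csf3, the ligand of the Csf3r receptor, was above background on 4 of 5 vehicle arrays of 24 hr and on 0 under BW245C, at least 2.10-fold lower (adjusted p = 0.0415). At 3 hr only Cxcl5 of this list was lower under BW245C (-1.17 ± 0.30, adjusted p = 0.00706).

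Markers of other cells moved with ConA as well, and their part in the members' results was not tested. Of 9 monocyte markers 7 rose and 1 fell at 24 hr after ConA with vehicle, and the mean level of the list went from between -0.96 and -0.39 in untreated mice to between 1.17 and 1.68. Under BW245C at 24 hr it was between 1.00 and 1.58, with 1 of 9 lower. Of 10 measured T and NK cell markers 9 rose at 24 hr after ConA, with list means of 0.77 to 1.34 under vehicle and 0.63 to 1.09 under BW245C, and 1 of 10 was lower under BW245C. The members' own list mean ran from 1.97 to 2.68 under vehicle and from -0.63 to 1.41 under BW245C, with no overlap. Nor did the means overlap for other neutrophil genes (vehicle 0.10 to 0.63, BW245C -1.515 to -0.24) or granule genes (0.19 to 0.40, -0.28 to -0.034). The same held for attractants (-0.96 to -0.54, -2.96 to -1.93), whereas the NADPH oxidase list overlapped (1.17 to 1.935, 0.75 to 1.53). The members' mean holds Prok2, which passed the filter through the vehicle group of 24 hr. Members and lists were chosen with earlier results of these data known. Differences between the lists were not tested, and no weight rests on which of them overlapped.

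Kupffer cell and macrophage markers went the other way, with 9 of 11 lower at 24 hr after ConA with vehicle and 0 of 11 called between BW245C and vehicle. Of 10 hepatocyte markers 8 were lower and 2 higher at 24 hr after ConA, and 3 were higher under BW245C than under vehicle, with list means of 8.76 to 9.19 under vehicle and 8.99 to 9.50 under BW245C. B cell (0 of 5), platelet (0 of 6), erythroid (0 of 3) and eosinophil, basophil and mast cell (0 of 4) markers had no call between BW245C and vehicle at 24 hr. At 3 hr, 4 of 6 platelet markers and 2 of 3 erythroid markers were lower under BW245C, while 0 members were called. The eosinophil peroxidase Epx and the mast cell receptor genes Fcer1a and Ms4a2 were at background on all 25 arrays.

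**Figure D4:**
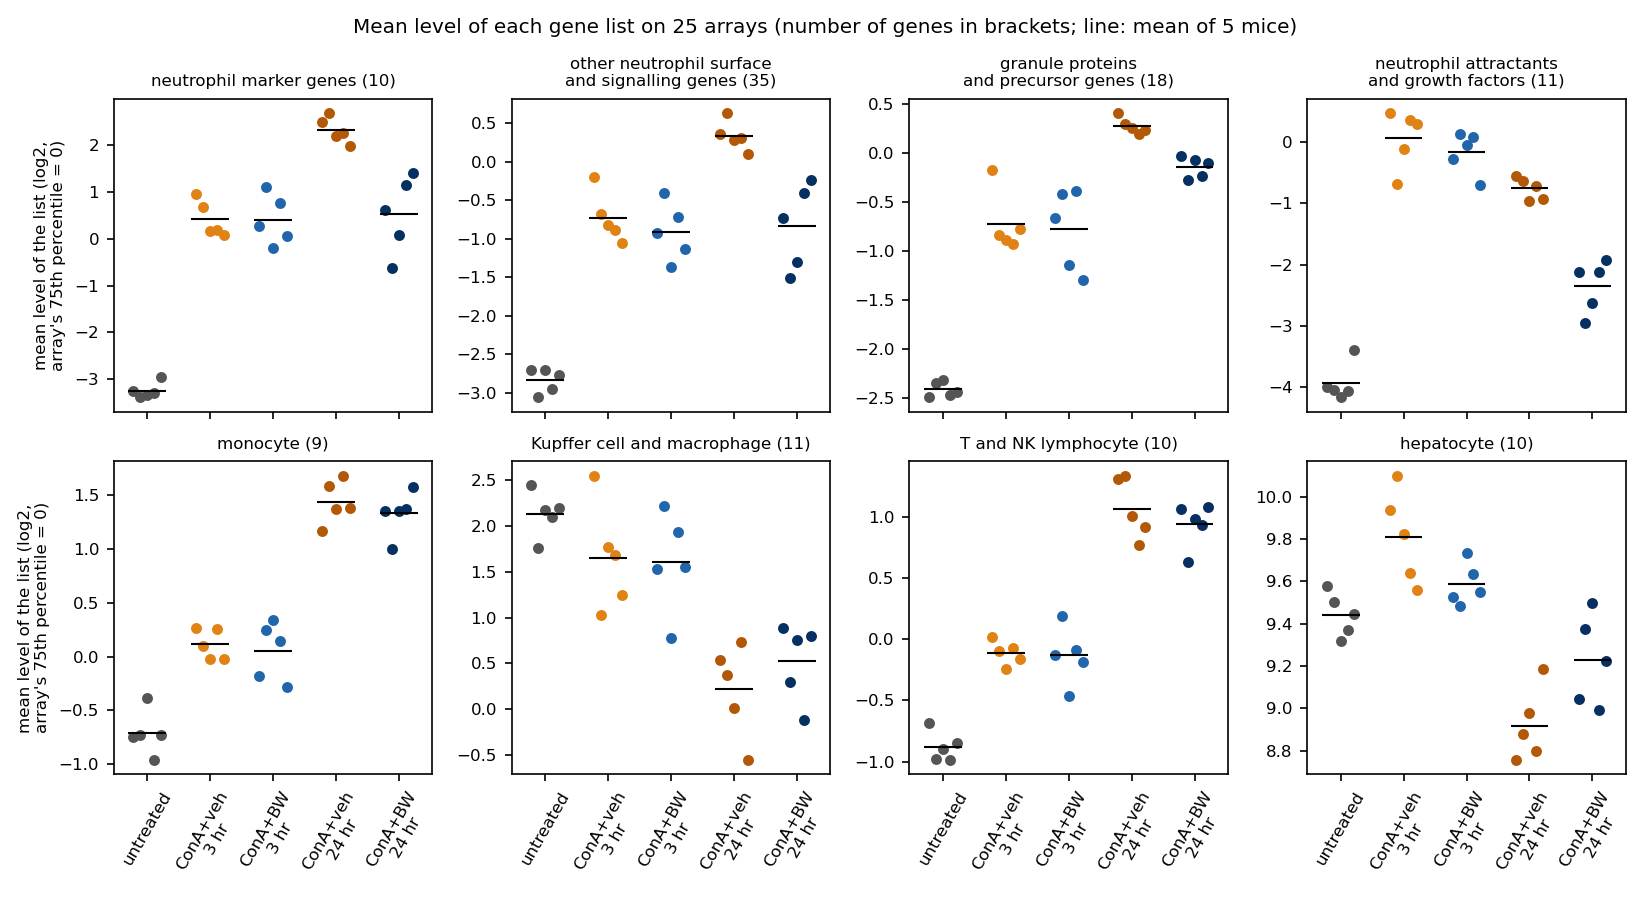
Mean log2 level (array's 75th percentile = 0) of the measured genes of 8 lists on each of the 25 arrays, by group, with lines at the mean of 5 mice and the number of genes in brackets. The 10 neutrophil marker genes lie between 1.97 and 2.68 at 24 hr with vehicle and between -0.63 and 1.41 with BW245C. They include Prok2, which passed the filter through the vehicle group of 24 hr. The monocyte list overlaps between these groups (1.17 to 1.68 and 1.00 to 1.58), and differences between lists were not tested. The lists of other neutrophil genes, granule genes and attractants do not overlap between these groups either.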

How the data were processed

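Cy3 intensity was measured on 25 arrays. Per the file headers, the deposited processed intensity values were background-subtracted and spatially detrended by Agilent Feature Extraction (10.7.3.1 in the headers, 9.1 in the submitters' processing notes) and were not scaled between arrays. The authors' series matrix is that intensity multiplied by a factor for each array. Here log2 values minus each array's 75th percentile were fitted with limma 3.58.1 in R 4.3.3 (with the data.table package, 1.17.8), 1 mean per group over 25 arrays, for 15104 genes that took their brightest probe among those above background on at least 5 arrays. Of 55681 probes 26582 received a symbol through RefSeq names (GRCm38.p6). The spots number 59305 per array. In a lone-array arm of a slide the array is assumed to vary like the others. Steps were tested on simulated data. Figures were made in matplotlib 3.10.9 under Python 3.11.15, with tables read by pandas 2.3.3 and numpy 2.4.6.

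All members were named in each comparison. From each list of other neutrophil genes the 3 with the smallest p at 24 hr were named, with Ly6g, Cxcr2, Elane, Mpo, Camp, Cxcl1, Cxcl2 and Csf3 always allowed. A gene that this rule also named is not reported here. The members and lists were chosen with earlier results of these data known. Alternatives were normexp background (offset 50), quantile or median scaling, other filters, probe means, slide or replicate block, 1 slide only, only the groups compared, series matrix values, an intensity trend, a 2-fold minimum and leaving out each array.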

Additional observations from a re-analysis of the deposited data

Results flagged for a closer look

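In untreated mice Mmp9 had a level of -4.18 in replicate 4, far from the other 4 arrays, whose levels lay between -6.32 and -6.07. The gap took 0.881 of the group's range, above the critical ratio of 0.71 for 5 arrays. This was the 1 flag among 43 groups of members examined, and chance flags about 1 in 20.

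The agonist's effect on 8 members differed between 24 and 3 hr by the interaction test. The values on the log2 scale were -1.66 for S100a8, -1.57 for S100a9, -2.79 for Retnlg, -2.83 for Prok2, -1.98 for Il1r2, -2.27 for Mmp8, -1.98 for Mmp9 and -1.56 for Fpr1, each more negative at 24 hr. Those of Prok2 and Mmp9 hold 3 hr levels at background.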

How the results depend on the processing

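Counts of called members stayed within 1.5 times the main count under most alternatives. Leaving out each array in turn gave 6 to 8 called members for ConA with vehicle against untreated at 3 hr, 8 to 8 at 24 hr, 8 to 10 for 24 against 3 hr with vehicle, 0 to 1 for BW245C against vehicle at 3 hr, 8 to 9 at 24 hr, 8 to 8 for the interaction and 6 to 7 for 24 against 3 hr with BW245C. With a filter on all 25 arrays only 4 members could be tested, and the counts, in the same order but without BW245C at 3 hr, were 3, 2, 4, 3, 3 and 2. With slide as a fixed block they were 5 for 24 against 3 hr with vehicle, 5 for the interaction and 4 for 24 against 3 hr with BW245C. Quantile normalization and an intensity trend each called 1 member (Slfn4) for BW245C against vehicle at 3 hr. Within slide 4 the count for BW245C against vehicle at 24 hr was 2. Using only the groups compared, or a 2-fold minimum, gave 4 for 24 against 3 hr with BW245C.

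Signs turned under some settings, and 2 of the calls were among them, Csf3r for 24 against 3 hr with vehicle and Prok2 for 24 against 3 hr with BW245C. For Csf3r, ConA with vehicle against untreated at 24 hr was 0.27 after quantile normalization, 0.16 with slide as a fixed block and 0.25 in series matrix values, and 24 against 3 hr with vehicle was 0.22 and 0.21 with quantile and series matrix values. For BW245C against vehicle at 3 hr, S100a8 was 0.039 with normexp, 0.060 with quantile normalization, 0.11 and 0.040 with slide as a fixed and random block, 0.068 in series matrix values and 0.30 within slide 3. S100a9 was 0.024 with the fixed block and 0.20 within slide 3, Il1r2 was -0.028 and Mmp8 -0.047 with quantile normalization, and Prok2 was 0.011 in series matrix values and 0.067 within slide 3. Csf3r was 0.11 with quantile normalization and in series matrix values, 0.099 and 0.035 with the fixed and random block and 0.14 within slide 3. For 24 against 3 hr with BW245C, Prok2 was -0.024 with normexp and S100a9 0.12 and 0.058 with quantile and series matrix values. Beyond fewer arrays or genes, the cause was not tested.

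Leaving out an array also turned signs. For BW245C against vehicle at 3 hr the ranges were -0.27 to 0.17 for S100a8, -0.39 to 0.020 for S100a9, -0.18 to 0.0013 for Prok2, -0.12 to 0.29 for Il1r2, -0.17 to 0.22 for Mmp8 and -0.075 to 0.045 for Csf3r. Fpr1 for ConA with vehicle against untreated at 24 hr ranged from -0.057 to 0.24, and S100a9 for 24 against 3 hr with BW245C from -0.37 to 0.098.

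The replicate numbers did not pair mice, since 4 of 25 arrays were most like an array of their own number and the median same-number correlation was -0.013. With a replicate block the counts were 7, 8, 9, 0, 9, 8 and 6 in the order above, and Fpr1 between 3 and 24 hr with BW245C was the 1 call lost (adjusted p = 0.0564). Prok2 on 19 of 25 arrays and Mmp9 on 12 of 25 were not above background, which limits their values.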
